A study of Mus musculus with 24 samples.

Results

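Luminal GFP+ cells of one reporter mouse were set against luminal YFP- cells of another, in 8 of the 24 libraries of the series (4 GFP+ and 4 YFP-). The GFP+ cells came from mice with an Elf5-rtTA-IRES-GFP allele (the Elf5 model), in which the green reporter is tied to Elf5. The YFP- cells came from mice with PR-cre and a Rosa26-LSL-eYFP allele (the PRcr model), in which a cell that has had Cre activity, and its progeny, turn yellow, so YFP- cells are those left unmarked. Each gate held 2 libraries from terminal end buds (TEBs, the bulbous tips by which the ducts advance) and 2 from ducts, both microdissected from pubertal mammary glands. All were lineage-negative, EpCAM+ and CD29 low, the luminal gate. The labels name neither strain nor age in weeks. Whether replicates were separate mice is not stated, so p-values measure a spread between samples that may be technical in part.

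Because the gates came from different mice, gate and mouse model coincide in the luminal cells. The members were therefore compared a second time after subtraction of the model difference in basal cells (lineage-negative, EpCAM+, CD29 high), which were sorted without a reporter from both mice, 4 libraries from the Elf5 model and 4 from the PRcr model, again 2 per tissue. A model difference that exists only in luminal cells is not removed by this step and cannot be told apart from the gate. A model difference that exists only in basal cells enters the subtracted value with its sign reversed. It cannot be told apart from the gate there either. The remaining luminal cells, GFP- and YFP+ (4 libraries each), are given where they place a value on a scale.

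The luminal layer of the mammary gland holds hormone-sensing cells, which carry the oestrogen and progesterone receptors, and receptor-negative luminal progenitors, which give rise to the milk-secreting alveoli. Elf5 is an ETS-family transcription factor of the progenitors and alveolar cells. In pregnancy it acts beside prolactin, whose receptor activates STAT5, and both are needed for the alveoli to make caseins and whey proteins. GFP+ cells (Elf5 reporter on) and YFP- cells (no history of the progesterone receptor driver) are thus both sorted towards the receptor-negative luminal compartment.

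Total counts of the 8 libraries ran from 31.26 to 52.5 in units of 1e6, and 16232 to 18015 genes had a count. Levels are given as CPM, counts per 1e6 counts after TMM scaling, replicate 1 before replicate 2; CPM is not divided by gene length, so levels are compared between samples and not between genes. Differences are log2 fold changes ± SE, averaged over TEBs and ducts unless a tissue is named, and a gene is called where the adjusted p is under 0.05 over the 18109 genes tested. YFP- TEB replicate 2 stood apart from the other 7 libraries. It had a coordinate of 68.7 on the third principal component (11.8% of the variance), where YFP- TEB replicate 1 had -20.7, and it had the highest summed level of 12 keratinocyte markers, 524.4 CPM, against 162.1 CPM in its replicate. Values without it are given beside the results that its removal moved most.

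The reporter and gate genes were checked first. Elf5 stood at 758 and 697 CPM in GFP+ TEBs and 1535 and 1657 CPM in GFP+ ducts, against 410.1 and 467 CPM in YFP- TEBs and 692 and 691 CPM in YFP- ducts. All GFP+ libraries were above all YFP- libraries, and the difference was 0.97 ± 0.20, adjusted p = 0.0028. In GFP- cells Elf5 averaged 40.2 CPM and in YFP+ cells 50.8 CPM, so both gates held the Elf5-high cells of their mouse. The basal cells differed more between the models, with 22.1 ± 5.37 CPM in basal Elf5 cells and 1.81 ± 1.05 CPM in basal PRcr cells (SD, n = 4 each; 3.67 ± 0.24, adjusted p = 1.05e-07). The Elf5 difference after subtraction of the basal one was therefore -2.70 ± 0.31, adjusted p = 7.73e-05. Reads from an added allele that carries Elf5 sequence cannot be told apart from those of the native gene. Pgr, the progesterone receptor, had 48 and 28.4 CPM in GFP+ TEBs and 38.2 and 73.3 CPM in GFP+ ducts, against 39.4 and 20.9 CPM in YFP- TEBs and 20 and 13.2 CPM in YFP- ducts. Both gates were far below the 419.9 CPM of GFP- and 408 CPM of YFP+ cells, and their libraries overlapped, with a difference of 1.04 ± 0.30, adjusted p = 0.0219. Without YFP- TEB replicate 2 the Pgr call ended (adjusted p = 0.093), and leaving out 1 of 3 other libraries also ended it (adjusted p up to 0.0969, without GFP+ TEB replicate 1). Cd24a, the gene of the epithelial surface antigen CD24, had 781 and 689.7 CPM in GFP+ TEBs and 693 and 782 CPM in GFP+ ducts, against 633 and 595 CPM in YFP- TEBs and 497 and 488 CPM in YFP- ducts and was called (0.42 ± 0.12, adjusted p = 0.0217; 0.0726 without YFP- TEB replicate 2). Epcam and Itgb1, the genes of the EpCAM and CD29 antigens, were not called (0.03 ± 0.09, adjusted p = 0.859, and 0.02 ± 0.06, adjusted p = 0.916).

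Across all genes tested, 4055 (22.4%) were called between the gates. Of these, 2303 were higher in GFP+ cells (12.7% of the genes tested) and 1752 were lower (9.67%), and 894 (4.94%) and 582 (3.21%) of them differed by more than 2-fold. The basal model difference called 1808 genes (9.98%), 823 higher (4.54%) and 985 lower (5.44%) in the Elf5 model. After gene-by-gene subtraction 1481 genes were called (8.18%), 938 higher (5.18%) and 543 lower (3%). Genes called between the gates and again after subtraction, with the same sign, numbered 677 higher (3.74% of the genes tested) and 403 lower (2.23%). Another 403 higher and 383 lower genes, here termed model-like, were called between the gates and between the basal models with the same sign and not after subtraction. A further 1214 higher and 953 lower genes were called in neither of the other comparisons. The 4 GFP+ libraries lay wholly above the 4 YFP- libraries for 1211 of the 2303 higher genes and wholly below for 901 of the 1752 lower ones. Over all genes tested, called or not, they lay wholly above for 1543 (8.52%) and wholly below for 1156 (6.38%). A missed call after subtraction does not show that a gene follows the model, since the subtracted difference carries the error of 4 groups. For 61 of the 4055 genes the subtracted fit gave no usable test, taken as an unadjusted p over 0.9 beside a fitted log2 difference of over 2. Each had a compared group at 0 counts. Unusable tests beside a smaller fitted difference are not in this count.

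**Figure D1:**
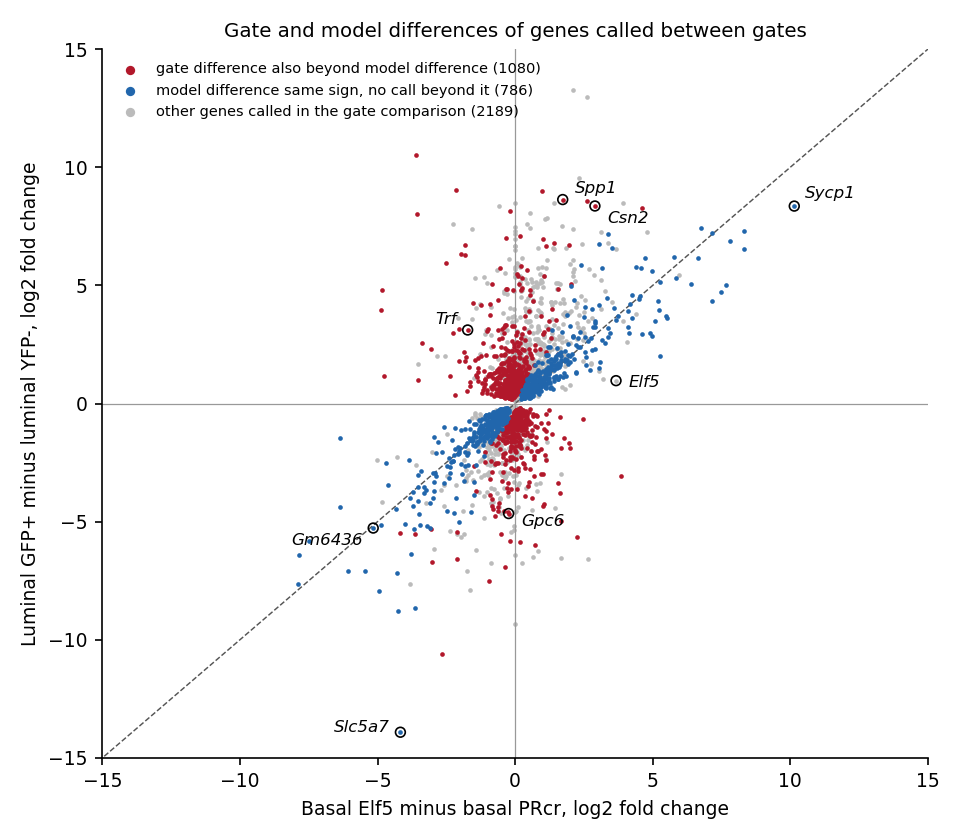
Each point is 1 of the 4055 genes called between luminal GFP+ and YFP- cells; the vertical axis is the log2 fold change GFP+ over YFP- and the horizontal axis the log2 fold change of basal Elf5 over basal PRcr cells, with equality on the dashed line. Red points (1080 genes) were also called after subtraction of the basal difference, blue points (786 genes) were called with the same sign in basal cells and not after subtraction, and grey points are the other calls. Spp1, Csn2, Trf and Gpc6 lie far from the dashed line and Sycp1 and Gm6436 lie near it.

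The model-like genes were followed in the remaining luminal cells, where GFP- (Elf5 model) and YFP+ (PRcr model) are a second pair that differs by gate and model. Of the 403 model-like higher genes 227 (56.3%) were also called higher in GFP- than in YFP+ cells, and of the 383 lower ones 243 (63.4%) were also called lower. Of the genes called after subtraction these shares were 155 of 677 (22.9%) and 129 of 403 (32%). Of all genes tested, 8.27% were higher and 7.89% lower in GFP- than in YFP+ cells. Leaving out 1 library moved several of these counts by more than 1.5 times. Genes lower in GFP+ cells numbered 1158 without GFP+ TEB replicate 2. Genes lower after subtraction numbered 342 without basal Elf5 TEB replicate 1, 330 without basal PRcr TEB replicate 2 and 349 without YFP- duct replicate 2. Genes called lower both between gates and after subtraction numbered 264, 244 and 264 without the same 3 libraries and 267 without YFP- duct replicate 1. Without YFP- TEB replicate 2 there were 1692 higher and 1327 lower genes between the gates, and 485 and 273 of them were also called after subtraction; 71.3% of the 4055 calls were kept.

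Most listed genes of milk protein synthesis and secretion were higher in GFP+ than in YFP- cells. Of 17 list members, 11 were higher in GFP+ cells, where 12.7% of all genes were, and none was called lower. The median difference was 1.67 on the log2 scale, against 0.03 over all genes tested. All 17 together summed to 8804.9 and 7363.7 CPM in GFP+ TEBs and 95945.9 and 47644.7 CPM in GFP+ ducts, against 3845.3 and 3917.1 CPM in YFP- TEBs and 11139.9 and 10792.5 CPM in YFP- ducts. The sums of the gates overlap across tissues but not within a tissue. In bulk libraries fewer cells of a type and less RNA per cell cannot be told apart.

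Promoter sequences are shown for 3 genes that hold a motif match, because Elf5 and STAT5 are known regulators of milk genes and their binding motifs can be looked for in the letters. The 250 bases before the gene start (RefSeq, GRCm38.p6) are printed in the direction of transcription, with the motif match in capitals: TTCNNNGAA, a STAT5 site, in Csn2 (chr5:87699426-87699675, minus strand), and GGAAGT, an ETS core, in Wap (chr11:6638650-6638899, minus strand) and Spp1 (chr5:104434861-104435110, plus strand).
Csn2: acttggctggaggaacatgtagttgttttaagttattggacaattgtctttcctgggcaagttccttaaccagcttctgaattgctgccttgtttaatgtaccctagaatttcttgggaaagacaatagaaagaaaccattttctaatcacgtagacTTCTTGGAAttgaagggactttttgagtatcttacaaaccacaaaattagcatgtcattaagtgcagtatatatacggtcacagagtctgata
Wap: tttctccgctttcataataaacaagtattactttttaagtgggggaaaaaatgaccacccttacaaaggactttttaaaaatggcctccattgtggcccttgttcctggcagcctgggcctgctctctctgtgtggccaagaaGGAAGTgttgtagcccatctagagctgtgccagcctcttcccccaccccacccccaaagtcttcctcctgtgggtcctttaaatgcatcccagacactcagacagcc
Spp1: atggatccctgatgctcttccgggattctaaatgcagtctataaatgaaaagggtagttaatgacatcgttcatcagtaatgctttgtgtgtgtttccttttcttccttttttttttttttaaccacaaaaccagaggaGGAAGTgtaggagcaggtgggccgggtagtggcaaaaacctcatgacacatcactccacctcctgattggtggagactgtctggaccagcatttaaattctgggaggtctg
The STAT5 match in Csn2 began 93 bases before the start, and the ETS match began 107 bases before it in Wap and 111 in Spp1. Both strands were searched over 300 bases around each start (250 before and 50 after). TTCNNNGAA was found in 3 of the 8 higher milk genes with a promoter in the table (37.5%; Csn1s1, Csn1s2a and Csn2), where 9.55% of 27025 promoters and 8.43% of those of genes tested hold it, and GGAAGT in 1 of the 8 (12.5%; Wap), where 26.5% of all promoters and 29.8% of those of genes tested hold it. Among the 12 higher genes beyond the model, GGAAGT was found in 2 of 11 with a promoter (18.2%), Spp1 included. The motifs can share letters where they adjoin. TGTTCT, a core of the progesterone response element, was found in 1 of the 8 (12.5%), where 21.3% and 15.9% hold it. A match is a run of letters and not evidence of binding.

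Spp1, osteopontin, is a phosphoprotein secreted into milk and headed the genes that differed beyond the model. It stood at 377 and 438 CPM in GFP+ TEBs and 8680 and 5123 CPM in GFP+ ducts, against 5.88 and 4.69 CPM in YFP- TEBs and 4.32 and 2.33 CPM in YFP- ducts. Every GFP+ library was far above every YFP- library, and the ducts were above the TEBs within GFP+ cells. The difference was 8.64 ± 0.85, adjusted p = 1.07e-05, and 6.91 ± 1.20, adjusted p = 0.00297 after subtraction. The subtracted value lost its call without basal PRcr duct replicate 2 or basal PRcr TEB replicate 2 (adjusted p up to 0.169). Csn2, beta-casein, had 142 and 64.5 CPM in GFP+ TEBs and 10520 and 1511 CPM in GFP+ ducts, against 2.77 and 1.48 CPM in YFP- TEBs and 3.65 and 1.62 CPM in YFP- ducts. Its YFP- libraries were all at a few CPM, while the 2 GFP+ duct replicates differed several-fold from each other. The difference was 8.36 ± 0.94, adjusted p = 3.11e-05, and 5.46 ± 1.33, adjusted p = 0.0225 after subtraction, where 7 of 16 fits that left out 1 library ended the call (adjusted p up to 0.104; 0.0521 without YFP- TEB replicate 2).

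Of the other caseins 3 were called higher. Csn1s2b, a further alpha-S2 casein, ran at 0.203 to 1.42 CPM in GFP+ cells, against 0.511 to 1.88 CPM in YFP- cells and was not called (-0.84 ± 0.67, adjusted p = 0.421). Csn1s2a, an alpha-S2 casein, stood at 76.9 and 21.8 CPM in GFP+ TEBs and 6218 and 898 CPM in GFP+ ducts, against 1.72 and 1.87 CPM in YFP- TEBs and 4.46 and 2.46 CPM in YFP- ducts. The log2 difference of Csn1s2a was 7.39 ± 0.86 (adjusted p = 4.55e-05) between gates and 5.30 ± 1.96 (adjusted p = 0.125) after subtraction. Csn1s1, alpha-S1 casein, had 418 and 182 CPM in GFP+ TEBs and 8822 and 2127 CPM in GFP+ ducts, against 40.3 and 34.5 CPM in YFP- TEBs and 20.5 and 10 CPM in YFP- ducts (5.74 ± 0.73, adjusted p = 8.98e-05). Both were above all YFP- libraries in all GFP+ libraries, with the widest gap in ducts. Csn1s1 was also higher in basal cells of the Elf5 model, 11 ± 4.48 CPM in basal Elf5 cells and 1.34 ± 0.937 CPM in basal PRcr cells (3.17 ± 0.74, adjusted p = 0.0146), and was not called after subtraction (2.57 ± 0.98, adjusted p = 0.138). Csn3, kappa-casein, which caps the casein micelle, differed less, 1722 to 9752 CPM in GFP+ cells, against 1149 to 2289 CPM in YFP- cells (1.18 ± 0.37, adjusted p = 0.0329). Its call ended in 7 of 8 fits that left out 1 library (adjusted p up to 0.124, without GFP+ duct replicate 1).

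Of the whey proteins, Lalba, alpha-lactalbumin, which turns galactosyltransferase into lactose synthase, had 105 and 67.4 CPM in GFP+ TEBs and 2634 and 2551 CPM in GFP+ ducts, against 9.66 and 16.7 CPM in YFP- TEBs and 155 and 139 CPM in YFP- ducts. Within each tissue the gates did not overlap, but YFP- ducts were above GFP+ TEBs, and the difference was 3.43 ± 0.48, adjusted p = 0.000185. Wap, whey acidic protein, stood at 2.68 and 2.12 CPM in GFP+ TEBs and 14.8 and 5.99 CPM in GFP+ ducts, against 0.0213 and 0 CPM in YFP- TEBs and 0.054 and 0 CPM in YFP- ducts. The YFP- libraries held 3 Wap counts in total, so no fold is given. Trf, transferrin, the iron carrier of milk and serum, had 3898 and 2978 CPM in GFP+ TEBs and 45240 and 23400 CPM in GFP+ ducts, against 591 and 703 CPM in YFP- TEBs and 2378 and 2490 CPM in YFP- ducts. The GFP+ libraries were above the YFP- libraries (3.11 ± 0.33, adjusted p = 1.47e-05), whereas basal cells of the Elf5 model were below those of the PRcr model (-1.72 ± 0.32, adjusted p = 0.00288), so the difference after subtraction was larger (4.84 ± 0.46, adjusted p = 2.16e-05).

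Of the genes of milk fat secretion some were higher and others were not called. Btn1a1, butyrophilin of the milk fat globule membrane, had 169 and 158 CPM in GFP+ TEBs and 4192 and 3447 CPM in GFP+ ducts, against 45.2 and 80.9 CPM in YFP- TEBs and 1053 and 1073 CPM in YFP- ducts (1.61 ± 0.35, adjusted p = 0.00453). Plin2, which coats lipid droplets, had 198 and 184 CPM in GFP+ TEBs and 694 and 523 CPM in GFP+ ducts, against 195 and 198 CPM in YFP- TEBs and 259 and 291 CPM in YFP- ducts. Plin2 was higher in both GFP+ ducts than in both YFP- ducts. The TEB libraries of the gates overlapped, and the difference changed between the tissues (-1.19 ± 0.23, adjusted p = 0.0198, TEB minus duct), a call that ended without YFP- TEB replicate 2 (adjusted p = 0.0593). Mfge8, a milk fat globule protein, differed by 0.51 ± 0.17, adjusted p = 0.0368 and lost its call in 7 of 8 fits that left out 1 library (adjusted p up to 0.127). Xdh, xanthine oxidoreductase of the same membrane, ran at 197 to 1066 CPM in GFP+ cells, against 145 to 382 CPM in YFP- cells and was not called (0.88 ± 0.34, adjusted p = 0.0859). Muc1 and Muc15, mucins of that membrane, were not called either (-0.58 ± 0.26, adjusted p = 0.133, and 0.17 ± 0.38, adjusted p = 0.818). Within ducts 10 of the 17 members were called higher, where 8.13% of genes were, and within TEBs 5, where 5.95% were. The medians were 2.32 and 1.03. Of the 17, the difference between the tissues was called for 1, Plin2, where it was called for 1.13% of all genes. When YFP- TEB replicate 2 was left out, 8 members stayed called between the gates (Csn3, Lpo and Mfge8 did not), and 1 of the 5 stayed called within TEBs. After subtraction 5 members were called higher with the gate, where 3.74% of all genes were: Csn2, Trf, Plin2, Lpo and Mfge8. In the fit without that library the subtracted call ended for Csn2, Plin2 (adjusted p = 0.0797) and Lpo (adjusted p = 0.0919), and Mfge8 lost its call between the gates (adjusted p = 0.0925), so Trf kept both. Lpo, lactoperoxidase, was under 1.5 CPM in all 8 libraries.

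**Figure D2:**
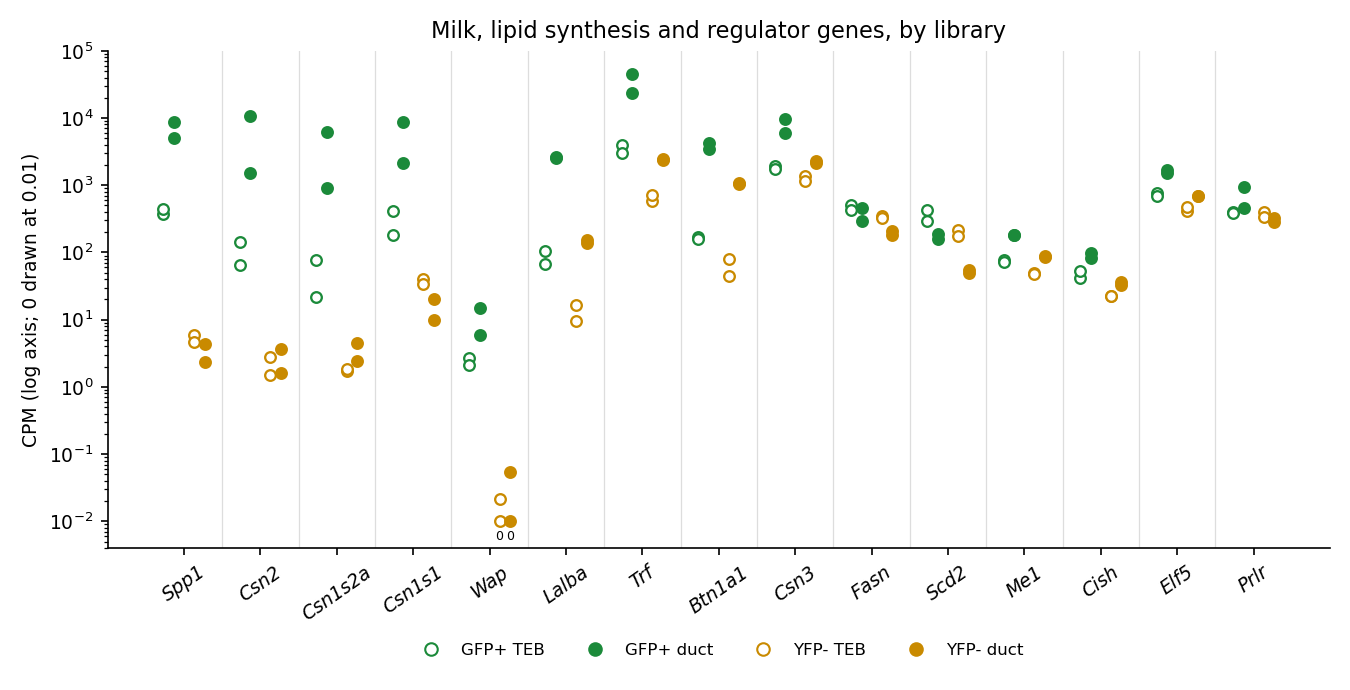
CPM of milk, lipid synthesis and regulator genes in the 8 luminal libraries on a log axis, open points for TEBs and filled points for ducts, GFP+ left of YFP- in each column; a value of 0 is drawn at 0.01. Spp1, Csn2 and Csn1s2a are under 6 CPM in every YFP- library, and Prlr overlaps between the gates.

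Genes of fatty acid synthesis, which supply milk fat and membranes, were higher in GFP+ cells in 8 of 14 list members (12.7% of all genes), with none called lower and a median of 0.52. Fasn, fatty acid synthase, had 507 and 425 CPM in GFP+ TEBs and 456 and 296 CPM in GFP+ ducts, against 345 and 322 CPM in YFP- TEBs and 180.3 and 209.8 CPM in YFP- ducts. Within each tissue the gates did not overlap, and the difference was 0.71 ± 0.12, adjusted p = 0.000419. Scd2, a stearoyl-CoA desaturase, stood at 424 and 294 CPM in GFP+ TEBs and 185 and 158 CPM in GFP+ ducts, against 214 and 175 CPM in YFP- TEBs and 50.3 and 54.9 CPM in YFP- ducts. It too was separated within tissues (1.29 ± 0.18, adjusted p = 9.68e-05) and was called after subtraction (1.09 ± 0.25, adjusted p = 0.0135). Me1, malic enzyme, which makes NADPH, had 77 and 72.5 CPM in GFP+ TEBs and 183 and 179 CPM in GFP+ ducts, against 49.2 and 47.5 CPM in YFP- TEBs and 89.5 and 85.5 CPM in YFP- ducts. Me1 differed by 0.84 ± 0.10 (adjusted p = 2.51e-05) between gates and 1.25 ± 0.15 (adjusted p = 7.39e-05) after subtraction. Srebf1, the transcription factor SREBP1 that controls this pathway, had 414 and 365 CPM in GFP+ TEBs and 429 and 466 CPM in GFP+ ducts, against 259.7 and 231 CPM in YFP- TEBs and 241 and 224 CPM in YFP- ducts (0.81 ± 0.11, adjusted p = 4.19e-05). Every GFP+ library was above every YFP- library for Srebf1. Acly, ATP citrate lyase, which supplies the acetyl-CoA, was separated within each tissue (0.62 ± 0.09, adjusted p = 0.000139). Thrsp, a lipogenic nuclear protein, had 2.85 and 1.95 CPM in GFP+ TEBs and 8.96 and 1.49 CPM in GFP+ ducts, against 0 and 0.0527 CPM in YFP- TEBs and 0 and 0 CPM in YFP- ducts, at least 119-fold higher in GFP+ than in YFP- ducts, which held no count (floor of 3 counts over the group). After subtraction 6 of the 8 were called higher too (Fasn, Acly, Scd2, Me1, Srebf1 and Thrsp), of which Fasn, Acly and Thrsp lost that call without 1 of several libraries (adjusted p up to 0.0621, 0.0754 and 0.189). Among all genes called higher between the gates, 29.4% were also called higher after subtraction. Acaca, the rate-limiting acetyl-CoA carboxylase, was not called between the gates (0.43 ± 0.16, adjusted p = 0.0594), nor were Scd1, Fads1 and Fads2 (0.08 ± 0.24, -0.49 ± 0.29 and -0.35 ± 0.27). Without YFP- TEB replicate 2, 7 members stayed called, and within TEBs 0 of the 4 called there did.

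Of 11 genes of prolactin and STAT5 signalling only Elf5 and Cish were called, where 22.4% of all genes were. Cish, a STAT5 target that inhibits cytokine receptors, had 41.1 and 52.9 CPM in GFP+ TEBs and 98.3 and 81.9 CPM in GFP+ ducts, against 22.8 and 22.5 CPM in YFP- TEBs and 33 and 36.5 CPM in YFP- ducts. All GFP+ libraries were above all YFP- libraries (1.21 ± 0.13, adjusted p = 3.97e-06; after subtraction 0.83 ± 0.18, adjusted p = 0.00778). Prlr, the prolactin receptor, had 404 and 387 CPM in GFP+ TEBs and 459.6 and 927 CPM in GFP+ ducts, against 404 and 332 CPM in YFP- TEBs and 319.8 and 280.1 CPM in YFP- ducts, with overlapping gates (0.66 ± 0.35, adjusted p = 0.204). Stat5a differed by 0.17 ± 0.24, adjusted p = 0.669, the feedback inhibitor Socs2 by -0.92 ± 0.34, adjusted p = 0.0683 and Gata3, a luminal transcription factor, by 0.10 ± 0.11, adjusted p = 0.559. None of these 4 was called. Among 19 ETS factors Elf5 was the 1 called higher, and 3 were called lower, where 12.7% and 9.67% of all genes were. Nothing is read from these 2 counts. Etv6, a repressor of the family, had 256 and 239.8 CPM in GFP+ TEBs and 370.2 and 320.2 CPM in GFP+ ducts, against 377 and 415 CPM in YFP- TEBs and 533 and 569.9 CPM in YFP- ducts (-0.68 ± 0.09, adjusted p = 4.43e-05), and it was lower in basal Elf5 cells also (-0.30 ± 0.09, adjusted p = 0.0428). Elk3 differed by -0.72 ± 0.15, adjusted p = 0.00184 and Etv1 by -0.41 ± 0.14, adjusted p = 0.0479; the Etv1 call ended in 7 of 8 fits that left out 1 library (adjusted p up to 0.222). Ehf, an ETS factor of luminal progenitors, was not called (-0.13 ± 0.10, adjusted p = 0.381).

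Luminal progenitor markers were high in both gates. The 12 markers summed to 3920.2 to 5447.4 CPM in GFP+ libraries and 4403.1 to 7510.2 CPM in YFP- libraries, against 467.4 to 526.8 CPM in GFP- and 516.9 to 963.9 CPM in YFP+ libraries. Between the gates 2 markers were higher (Elf5 and Lyn) and 2 lower (Aldh1a3 and Notch3), where 12.7% and 9.67% of all genes were. Aldh1a3, which makes retinoic acid and marks progenitors, had 339.6 and 492 CPM in GFP+ TEBs and 199 and 296 CPM in GFP+ ducts, against 572 and 516 CPM in YFP- TEBs and 1613 and 1622 CPM in YFP- ducts. All GFP+ libraries were below all YFP- libraries, with the larger gap in ducts (-1.55 ± 0.39, adjusted p = 0.0109), and its call ended without GFP+ duct replicate 1 or GFP+ TEB replicate 1 (adjusted p up to 0.0571). Kit, the stem cell factor receptor, had 834 and 773 CPM in GFP+ TEBs and 809 and 859 CPM in GFP+ ducts, against 1233 and 1350 CPM in YFP- TEBs and 2015 and 2111 CPM in YFP- ducts. Its libraries did not overlap either, GFP+ being lower, but the test across all groups did not call it (-1.0 ± 0.48, adjusted p = 0.163). Lyn, a Src-family kinase downstream of Kit, differed by 0.34 ± 0.11, adjusted p = 0.0345 and Notch3 by -0.26 ± 0.09, adjusted p = 0.0483; both calls ended in some fits that left out 1 library (adjusted p up to 0.17 and 0.211). Cd14, Ehf and Hey1 were not called.

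Hormone-sensing markers were low in both gates. The 14 markers summed to 776.9 to 1379.6 CPM in GFP+ and 455 to 972.9 CPM in YFP- libraries, against 7159 to 9949.6 CPM in GFP- and 8358.6 to 11520.8 CPM in YFP+ libraries. Of 13 tested, 5 were higher in GFP+ cells (Pgr, Esr1, Prom1, Msx2 and Wnt4) and 1 was lower (Tbx3), with a median of 0.86. The shares over all genes were 12.7% and 9.67%. Esr1, the oestrogen receptor, had 40.2 and 40.9 CPM in GFP+ TEBs and 31 and 43.1 CPM in GFP+ ducts, against 32.8 and 24.8 CPM in YFP- TEBs and 15.1 and 12.8 CPM in YFP- ducts (0.95 ± 0.16, adjusted p = 0.000537). Within a tissue the gates did not overlap, although both stood far below the 144 CPM of GFP- and 178 CPM of YFP+ cells. Prom1, the surface protein prominin, had 71.5 and 55.9 CPM in GFP+ TEBs and 29.9 and 58.4 CPM in GFP+ ducts, against 46 and 28.6 CPM in YFP- TEBs and 11.2 and 10 CPM in YFP- ducts (1.41 ± 0.29, adjusted p = 0.00298), and it differed between the basal models in the same direction (2.71 ± 0.33, adjusted p = 9.86e-05). Msx2, a homeobox factor, had 7.7 and 7.5 CPM in GFP+ TEBs and 3.49 and 6.87 CPM in GFP+ ducts, against 6.75 and 6.46 CPM in YFP- TEBs and 1.62 and 1.03 CPM in YFP- ducts, with a wide gap in ducts and a narrow one in TEBs, and the TEB minus duct difference was -1.74 ± 0.38, adjusted p = 0.0359 (0.0845 without YFP- TEB replicate 2). Tbx3, a T-box repressor of hormone-sensing cells, had 13.2 and 17.1 CPM in GFP+ TEBs and 16.6 and 30.4 CPM in GFP+ ducts, against 45.8 and 40.9 CPM in YFP- TEBs and 54.7 and 44.6 CPM in YFP- ducts. All GFP+ libraries were below all YFP- libraries (-1.30 ± 0.17, adjusted p = 7e-05), and basal Elf5 cells were lower as well (-1.23 ± 0.17, adjusted p = 0.000237). Within ducts 6 of the 13 were called higher and 1 lower (8.13% and 5.83% of all genes), and within TEBs 0 and 1 (5.95% and 5.05%). With YFP- TEB replicate 2 left out, 3 stayed higher (Pgr and Wnt4 did not; Wnt4 adjusted p = 0.0582) and 1 lower. Whether a small number of receptor-positive cells in a gate contributed to these values was not tested.

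**Figure D3:**
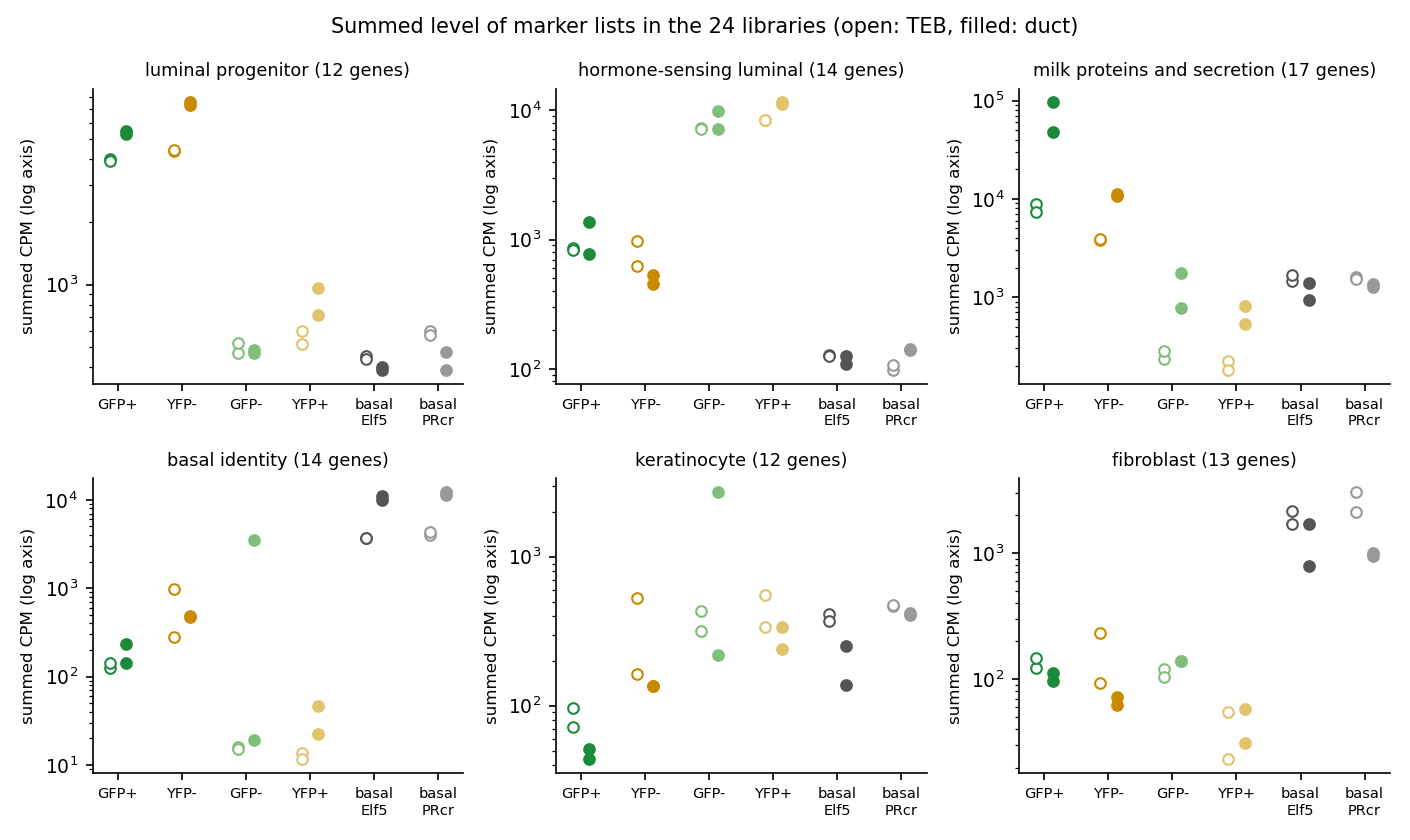
Summed CPM of 6 marker lists in all 24 libraries on log axes, 1 panel per list, with GFP+, YFP-, GFP-, YFP+, basal Elf5 and basal PRcr cells from left to right, open points for TEBs and filled points for ducts. Progenitor and milk genes are highest in GFP+ and YFP- cells, hormone-sensing markers are highest in GFP- and YFP+ cells, and basal and keratinocyte markers are lower in GFP+ than in YFP- cells.

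Among 6 luminal keratins 2 were higher and 1 was lower, where 12.7% and 9.67% of all genes were. Krt8, the simple-epithelium keratin, had 2771 and 3780 CPM in GFP+ TEBs and 3149 and 3288 CPM in GFP+ ducts, against 2126 and 1584 CPM in YFP- TEBs and 1963 and 1879 CPM in YFP- ducts. The GFP+ libraries were above the YFP- libraries (0.78 ± 0.15, adjusted p = 0.00147). Its partner Krt18 differed by 0.70 ± 0.18, adjusted p = 0.01, a call that ended without GFP+ TEB replicate 2 or YFP- TEB replicate 2 (adjusted p up to 0.0507). Krt23 had 22.2 and 22.7 CPM in GFP+ TEBs and 1.65 and 3.23 CPM in GFP+ ducts, against 81.1 and 65.4 CPM in YFP- TEBs and 45.9 and 30.4 CPM in YFP- ducts, all GFP+ libraries being lower (-2.85 ± 0.43, adjusted p = 0.000373; after subtraction -2.96 ± 0.58, adjusted p = 0.00629). Krt7 and Krt19 were not called (0.05 ± 0.24 and 0.24 ± 0.18).

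In the Notch pathway, which directs luminal fate, 1 of 14 members was higher and 3 were lower, where 12.7% and 9.67% of all genes were. These 3 lower members were also called lower after subtraction, as were 23% of all genes called lower between the gates. With YFP- TEB replicate 2 left out, 0 members were higher and 2 lower. Rbpj, the DNA-binding partner of the cleaved receptor, had 35.9 and 26.9 CPM in GFP+ TEBs and 26.9 and 30.8 CPM in GFP+ ducts, against 75.9 and 74 CPM in YFP- TEBs and 70.7 and 70.2 CPM in YFP- ducts. The GFP+ libraries lay below the YFP- libraries, with little spread in either (-1.27 ± 0.10, adjusted p = 1.7e-07). Basal cells of the Elf5 model were lower in Rbpj too (-0.80 ± 0.10, adjusted p = 4.99e-05), which left -0.47 ± 0.14, adjusted p = 0.0473 after subtraction; that call ended in 13 of 16 fits without 1 library (adjusted p up to 0.13). Nrarp, a target that feeds back on the pathway, had 26.6 and 20.5 CPM in GFP+ TEBs and 23.5 and 11.8 CPM in GFP+ ducts, against 48 and 35.6 CPM in YFP- TEBs and 41.8 and 51.5 CPM in YFP- ducts. The log2 difference of Nrarp was -1.12 ± 0.20 (adjusted p = 0.000803) between gates and -1.42 ± 0.29 (adjusted p = 0.00559) after subtraction. The receptor Notch1 was not called (0.19 ± 0.15, adjusted p = 0.418). The ligand Dll4 differed by 1.64 ± 0.52, adjusted p = 0.0323, and its call ended in 7 of 8 fits that left out 1 library (adjusted p up to 0.132).

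Genes of NF-kB signalling and chemokines were higher in 10 of 21 members and lower in 1 (12.7% and 9.67% of all genes), with a median of 0.99. Cxcl1, a neutrophil chemokine, had 202 and 656 CPM in GFP+ TEBs and 765 and 1210 CPM in GFP+ ducts, against 95.8 and 68.2 CPM in YFP- TEBs and 212 and 235 CPM in YFP- ducts. Within each tissue the gates did not overlap, but GFP+ TEB replicate 1 was below the YFP- ducts and the GFP+ TEB replicates stood far apart from each other (2.26 ± 0.40, adjusted p = 0.00113). Its relative Cxcl2 had 115 and 373 CPM in GFP+ TEBs and 307 and 338 CPM in GFP+ ducts, against 31.3 and 25 CPM in YFP- TEBs and 86.7 and 86 CPM in YFP- ducts, again with a wide gap between the GFP+ TEB replicates (2.51 ± 0.56, adjusted p = 0.00533). Icam1, an adhesion molecule for leukocytes, had 48.7 and 76.9 CPM in GFP+ TEBs and 104 and 74.2 CPM in GFP+ ducts, against 17.7 and 24.9 CPM in YFP- TEBs and 12.9 and 14.1 CPM in YFP- ducts. Its GFP+ libraries were all above its YFP- libraries (2.14 ± 0.22, adjusted p = 7.13e-06; after subtraction 1.99 ± 0.30, adjusted p = 0.000769). Of the regulators, Tnfaip3 (A20), which ends NF-kB signalling, differed by 1.34 ± 0.34, adjusted p = 0.0113, the inhibitor Nfkbia by 0.85 ± 0.24, adjusted p = 0.0193 and the subunit Relb by 0.61 ± 0.18, adjusted p = 0.0195. Leaving out GFP+ TEB replicate 2 ended the calls of these 3 (adjusted p = 0.072, 0.116 and 0.156) and raised that of Tnf to 0.218. Cxcl10, a chemokine induced by interferon, went the other way, with 4.17 and 3.07 CPM in GFP+ TEBs and 0.489 and 0.538 CPM in GFP+ ducts, against 7.66 and 11.8 CPM in YFP- TEBs and 3.75 and 5.24 CPM in YFP- ducts. Cxcl10 differed by -2.27 ± 0.21 (adjusted p = 1.15e-06) between gates and -2.18 ± 0.29 (adjusted p = 0.000188) after subtraction. Among all genes called higher between the gates, 29.4% were also called higher after subtraction. After subtraction 3 of the 10 higher members were called (Cxcl1, Icam1 and Relb), and Cxcl1 lost that call without YFP- TEB replicate 2 (adjusted p = 0.114) or any of 13 other libraries. After removal of YFP- TEB replicate 2, 8 members stayed higher and 1 lower between the gates. Of 20 immediate early genes, which tissue dissociation can induce, 4 were higher and none lower (12.7% and 9.67% of all genes), with a median of 0.28. The part of handling in the chemokine values was not tested.

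Defence genes of secretory epithelia were higher in 6 of 14 members, where 12.7% of all genes were, with none lower. The median was 1.21 between the gates and 0.68 between the basal models. After subtraction 1 of the 6, Slpi, was called, as were 29.4% of all genes called higher between the gates. Lbp, which binds bacterial lipopolysaccharide, had 157 and 132 CPM in GFP+ TEBs and 696 and 387 CPM in GFP+ ducts, against 20 and 23.1 CPM in YFP- TEBs and 18 and 21.5 CPM in YFP- ducts. Every GFP+ library was above every YFP- library (3.76 ± 0.44, adjusted p = 3.91e-05), and basal cells of the Elf5 model were higher too (1.87 ± 0.51, adjusted p = 0.0334). Slpi, a secreted protease inhibitor, had 42.2 and 36.4 CPM in GFP+ TEBs and 18 and 9.88 CPM in GFP+ ducts, against 0.979 and 3.59 CPM in YFP- TEBs and 2.81 and 4.07 CPM in YFP- ducts. The log2 difference of Slpi was 3.08 ± 0.48 (adjusted p = 0.000443) between gates and 4.12 ± 0.66 (adjusted p = 0.00159) after subtraction. Muc4, a membrane mucin, had 137 and 158 CPM in GFP+ TEBs and 47 and 29.3 CPM in GFP+ ducts, against 24.4 and 21.2 CPM in YFP- TEBs and 21 and 16.1 CPM in YFP- ducts, with the wider gap in TEBs (1.87 ± 0.29, adjusted p = 0.000228). Slpi and Muc4 were both above all YFP- libraries in all GFP+ libraries. Saa1, an acute-phase apolipoprotein, had 0.463 and 0.488 CPM in GFP+ TEBs and 11.5 and 4.56 CPM in GFP+ ducts, against 0.383 and 0.29 CPM in YFP- TEBs and 0 and 0 CPM in YFP- ducts, at least 183-fold higher in GFP+ than in YFP- ducts, which held no count; reads can be shared with its near copy Saa2. Ltf, lactoferrin, had 708 and 903 CPM in GFP+ TEBs and 3832 and 3870 CPM in GFP+ ducts, against 182 and 187 CPM in YFP- TEBs and 3073 and 3495 CPM in YFP- ducts and was not called (1.18 ± 0.48, adjusted p = 0.101). Pigr, which carries IgA into milk, differed by 1.25 ± 0.40, adjusted p = 0.0373, a call that ended in all 8 fits that left out 1 library (adjusted p up to 0.119).

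The MHC class I pathway, which presents peptides to T cells, was higher in 7 of 9 members (12.7% of all genes) with a median of 0.56. Basal cells of the Elf5 model were higher in 5 of 9 (4.54% of all genes) with the same median of 0.56. Tap1 lost its call between the gates without YFP- TEB replicate 2. H2-D1, a classical class I heavy chain, had 691 and 857 CPM in GFP+ TEBs and 572 and 599 CPM in GFP+ ducts, against 349 and 299 CPM in YFP- TEBs and 364 and 347 CPM in YFP- ducts. Its GFP+ libraries were above its YFP- libraries (0.99 ± 0.11, adjusted p = 6.36e-06), and the basal difference was nearly as large (0.81 ± 0.11, adjusted p = 0.000105), leaving 0.18 ± 0.15, adjusted p = 0.557. Psmb8, an immunoproteasome subunit, differed by 0.77 ± 0.16 between the gates and 0.93 ± 0.17 between the basal models, and B2m, the light chain, by 0.56 ± 0.12 and 0.20 ± 0.12. Tapbp (tapasin, which loads peptide) was the 1 member called after subtraction as well (0.67 ± 0.10, adjusted p = 8.22e-05; 0.71 ± 0.13, adjusted p = 0.00283). Among all genes called higher between the gates, 29.4% were also called higher after subtraction. H2 genes are close relatives that differ between mouse strains, and reads can be shared or lost between them. Of 7 MHC class II genes 1 was lower and none higher, where 9.67% and 12.7% of all genes were.

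Of 20 interferon-response genes, 4 differed between the gates by tissue, and 1 did without YFP- TEB replicate 2. The share of all genes called for that tissue difference was 1.13%. Over both tissues 12 were higher between the gates and none lower (12.7% and 9.67% of all genes), with a median of 0.74. In TEBs alone 13 were higher (5.95% of all genes) with a median of 1.38, and in ducts alone 2 were higher and 1 lower (8.13% and 5.83% of all genes) with a median of 0.03. The list summed to 814.2 and 1016.2 CPM in GFP+ TEBs, against 357.4 and 357.1 CPM in YFP- TEBs. In ducts the sums were 277.7 and 334.5 CPM in GFP+ cells, against 338.5 and 266.8 CPM in YFP- cells. GFP+ TEBs thus stood above the 6 other libraries, YFP- TEBs lay above all 4 ducts by a small margin, and the duct libraries of the gates overlapped. The GFP- TEBs of the same mice summed to 1350 and 1433.5 CPM and the YFP+ TEBs to 505.7 and 569.4 CPM. Basal TEB libraries had 211.1 and 265.8 CPM in the Elf5 model and 109.3 and 129.1 CPM in the PRcr model. All 3 gates of the Elf5 model were therefore above the matching gates of the PRcr model in TEBs.

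Among single genes, Isg15, a ubiquitin-like interferon product, had 40.6 and 58 CPM in GFP+ TEBs, against 13.2 and 12.7 CPM in YFP- TEBs. In ducts it stood at 7.49 and 6.84 CPM in GFP+ cells and 8.37 and 6.11 CPM in YFP- cells, overlapping. The TEB minus duct difference was 1.94 ± 0.35, adjusted p = 0.0147. Oasl2, of the oligoadenylate synthetase family, had 77.4 and 95.9 CPM in GFP+ TEBs, against 39.3 and 34.6 CPM in YFP- TEBs, and 11 and 17 CPM in GFP+ ducts, against 25.7 and 19.7 CPM in YFP- ducts. It was higher in GFP+ TEBs (1.23 ± 0.22, adjusted p = 0.00174) and lower in GFP+ ducts (-0.70 ± 0.22, adjusted p = 0.041), with a difference between tissues of 1.93 ± 0.31, adjusted p = 0.00714. Mx2, an antiviral GTPase, and Xaf1 were the other members whose difference changed between tissues (2.02 ± 0.40, adjusted p = 0.0204, and 1.86 ± 0.40, adjusted p = 0.0318). Oas2, which makes the second messenger of RNase L, was higher in both tissues, with 65.8 and 93.1 CPM in GFP+ TEBs and 6.07 and 5.99 CPM in GFP+ ducts, against 9.47 and 9.81 CPM in YFP- TEBs and 0.837 and 0.259 CPM in YFP- ducts. Oas2 differed by 3.23 ± 0.48 (adjusted p = 0.000246) between gates and 3.64 ± 0.79 (adjusted p = 0.0106) after subtraction. Oas1a had 50 and 58.7 CPM in GFP+ TEBs and 5.36 and 6.43 CPM in GFP+ ducts, against 12.5 and 11.4 CPM in YFP- TEBs and 1.89 and 1.26 CPM in YFP- ducts (2.04 ± 0.21, adjusted p = 2.69e-06) and has close copies that can share reads. Irf7, a transcription factor that amplifies the response, had 73.5 and 108 CPM in GFP+ TEBs, against 28.6 and 22.1 CPM in YFP- TEBs (1.17 ± 0.21, adjusted p = 0.000925; after subtraction 1.15 ± 0.30, adjusted p = 0.0279). Ifit1, a sensor of viral RNA, had 31.9 and 38.7 CPM in GFP+ TEBs, against 11.3 and 15.9 CPM in YFP- TEBs and was not called in TEBs (1.38 ± 0.51, adjusted p = 0.0988). Among all genes called higher between the gates, 29.4% were also called higher after subtraction. After subtraction 2 of the 12 were called, Oas2 and Irf7, and Irf7 lost that call in 9 of 16 fits without 1 library (adjusted p up to 0.0846). Without YFP- TEB replicate 2, 10 members stayed called between the gates (Bst2 and Oas3 did not) and 8 within TEBs. Of the 4 tissue differences only that of Oasl2 then remained called (adjusted p = 0.0316), with Isg15 at 0.057, Mx2 at 0.0528 and Xaf1 at 0.0845; without GFP+ TEB replicate 2 these 3 were at 0.0849, 0.113 and 0.168.

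**Figure D4:**
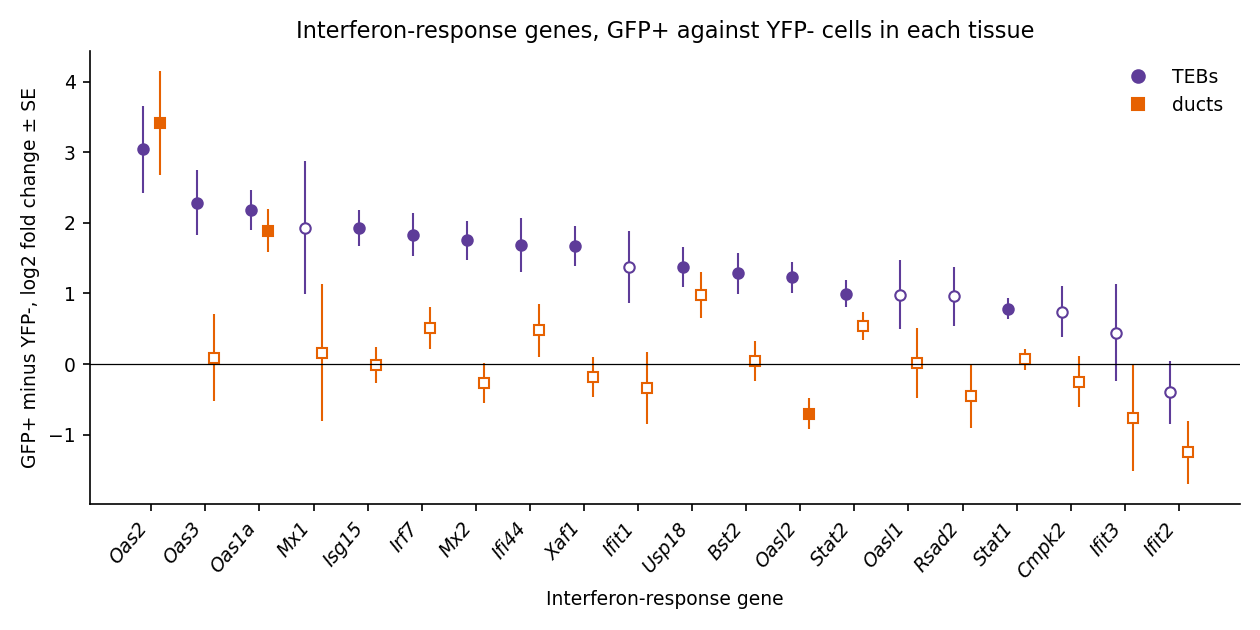
Log2 fold change GFP+ over YFP- ± SE of the 20 interferon-response genes, ordered by the TEB value, with circles for TEBs and squares for ducts; filled symbols are called within that tissue at an adjusted p under 0.05. In TEBs 13 genes are filled and above 0, and in ducts 2 are filled above and 1, Oasl2, below 0.

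Over all genes, the gate comparison called 1991 genes within TEBs (11%) and 2528 within ducts (14%), and the difference between the tissues was called for 205 (1.13%). Leaving out 1 library moved these counts: the TEB count was 650 without GFP+ TEB replicate 2, 773 without YFP- TEB replicate 2 and 1094 without GFP+ TEB replicate 1, and the duct count was 1297 and 1533 without YFP- duct replicates 2 and 1 and 1553 without GFP+ duct replicate 1. The tissue difference was called for 50 to 122 genes when 1 library was left out (116 and 107 without GFP+ duct replicates 1 and 2, 90 and 50 without GFP+ TEB replicates 1 and 2, 81 and 66 without YFP- duct replicates 1 and 2, 122 and 98 without YFP- TEB replicates 1 and 2). Of the genes called between the gates, 97% of the higher and 98.4% of the lower had the same sign in both tissues. They were called on the mean of both tissues, which itself favours a shared sign. A call in each tissue was made for 555 of the 2303 higher genes (24.1%) and 452 of the 1752 lower ones (25.8%). The genes named next have the largest called tissue differences. Rtn1, a reticulon of the endoplasmic reticulum, had 9.26 and 8.83 CPM in GFP+ TEBs and 1.82 and 1.36 CPM in GFP+ ducts, against 8.28 and 7.25 CPM in YFP- TEBs and 16.9 and 16.9 CPM in YFP- ducts, low in GFP+ ducts alone (TEB minus duct 3.61 ± 0.37, adjusted p = 0.000489). Col27a1, a fibrillar collagen, had 6.77 and 7.48 CPM in GFP+ TEBs and 0.533 and 1.17 CPM in GFP+ ducts, against 1.24 and 0.396 CPM in YFP- TEBs and 1.59 and 1.49 CPM in YFP- ducts, high in GFP+ TEBs alone (3.98 ± 0.68, adjusted p = 0.00911). Snorc, a transmembrane proteoglycan, had 16.3 and 17.6 CPM in GFP+ TEBs and 2.82 and 4.4 CPM in GFP+ ducts, against 73.8 and 62.8 CPM in YFP- TEBs and 184 and 152 CPM in YFP- ducts, GFP+ being lower in both tissues and most in ducts (3.54 ± 0.59, adjusted p = 0.013). In the other direction, Pdk4, which shuts off pyruvate dehydrogenase, had 0.714 and 0.529 CPM in GFP+ TEBs and 77.7 and 21.9 CPM in GFP+ ducts, against 15.8 and 30.5 CPM in YFP- TEBs and 31.8 and 33.8 CPM in YFP- ducts. It was lower in GFP+ than in YFP- TEBs and the gates overlapped in ducts (-5.81 ± 0.77, adjusted p = 0.00403). Limch1, an activator of non-muscle myosin, had 3.72 and 5.23 CPM in GFP+ TEBs and 3.65 and 6.11 CPM in GFP+ ducts, against 9.66 and 10.1 CPM in YFP- TEBs and 0.702 and 0.42 CPM in YFP- ducts, higher in GFP+ ducts and lower in GFP+ TEBs (-4.23 ± 0.47, adjusted p = 0.000498). Rtn1, Col27a1, Pdk4 and Limch1 kept their tissue call in all 8 fits that left out 1 library, and Snorc lost it in 3 (adjusted p up to 0.0593).

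By the rule for named genes, the 12 highest and 12 lowest genes called beyond the model were drawn from 363 and 204 that met it. Besides Spp1 and Csn2 the higher genes included secreted, transport and redox proteins. Slc2a9, a urate and hexose transporter, had 89.4 and 86 CPM in GFP+ TEBs and 88.7 and 60.8 CPM in GFP+ ducts, against 6.79 and 5.99 CPM in YFP- TEBs and 1.24 and 0.582 CPM in YFP- ducts. Duoxa1, which matures the hydrogen peroxide-producing dual oxidase, had 21.8 and 13.7 CPM in GFP+ TEBs and 37.7 and 8.8 CPM in GFP+ ducts, against 1.15 and 1.95 CPM in YFP- TEBs and 0.162 and 0.097 CPM in YFP- ducts. Each was far above all YFP- libraries in all GFP+ libraries, and the differences after subtraction were 4.92 ± 0.48, adjusted p = 1.71e-05 for Slc2a9 and 5.40 ± 0.80, adjusted p = 0.000506 for Duoxa1. Mvb12b, a subunit of the ESCRT-I sorting complex, had 38.3 and 35.4 CPM in GFP+ TEBs and 32.7 and 31 CPM in GFP+ ducts, against 1.92 and 2.64 CPM in YFP- TEBs and 0.189 and 1.1 CPM in YFP- ducts. The log2 difference of Mvb12b was 4.85 ± 0.28 (adjusted p = 1.19e-08) between gates and 5.20 ± 0.35 (adjusted p = 4.93e-07) after subtraction. Col6a3, a chain of collagen VI, had 106 and 110.1 CPM in GFP+ TEBs and 116 and 72 CPM in GFP+ ducts, against 4.77 and 11.1 CPM in YFP- TEBs and 4.11 and 5.69 CPM in YFP- ducts. Col6a3 differed by 4.02 ± 0.47 (adjusted p = 3.98e-05) between gates and 2.69 ± 0.60 (adjusted p = 0.0143) after subtraction. Both were nearly level over the 4 GFP+ libraries. Gdpd3, a lysophospholipase D, had 25.6 and 29.5 CPM in GFP+ TEBs and 58 and 62.6 CPM in GFP+ ducts, against 0.362 and 1.66 CPM in YFP- TEBs and 1.49 and 1.58 CPM in YFP- ducts. Its difference was 5.04 ± 0.36 between gates, 2.05 ± 0.35 between the basal models and 3.0 ± 0.48, adjusted p = 0.000997 after subtraction. Plekho2, a pleckstrin homology protein, had 10.8 and 12.1 CPM in GFP+ TEBs and 32.1 and 42.1 CPM in GFP+ ducts, against 1.77 and 1.69 CPM in YFP- TEBs and 1.81 and 1 CPM in YFP- ducts (3.71 ± 0.17, adjusted p = 1.45e-10), with a larger difference in ducts (-1.99 ± 0.31, adjusted p = 0.006, TEB minus duct). Pm20d1, which makes N-acyl amino acids, had 2.72 to 9.69 CPM in GFP+ cells, against 0 to 0.317 CPM in YFP- cells (4.85 ± 0.39, adjusted p = 2.09e-07), and Rasl12, a Ras-like GTPase, 4.69 to 6.41 CPM in GFP+ cells, against 0.158 to 0.594 CPM in YFP- cells (3.74 ± 0.41, adjusted p = 7.51e-06). Pianp, a ligand of an immune receptor, had 3.57 and 3.97 CPM in GFP+ TEBs and 8.87 and 13.1 CPM in GFP+ ducts, against 0.0426 and 0.237 CPM in YFP- TEBs and 0 and 0 CPM in YFP- ducts, at least 250-fold higher in GFP+ than in YFP- ducts, which held no count. Basal cells had 58.1 ± 24.8 CPM in basal Elf5 cells and 2.4 ± 1.11 CPM in basal PRcr cells of Pianp (4.63 ± 0.23, adjusted p = 5.58e-09). Its subtracted difference was 0.10 ± 0.43, adjusted p = 0.987 in TEBs and 7.23 ± 1.12, adjusted p = 0.00177 in ducts, so a difference beyond the models was called in ducts and not in TEBs. Pianp also differed between GFP- and YFP+ cells (17.5 and 0.00576 CPM on average), as did Pm20d1 (3.92 and 0.188 CPM, 5.24 ± 0.44, adjusted p = 2.93e-07). In that pair GFP- cells were also called higher for Spp1 (5.04 ± 0.85), Gdpd3 (4.64 ± 0.36) and Duoxa1 (3.42 ± 0.59). Col6a3 (1.91 ± 0.42) and Slc2a9 (1.16 ± 0.35) were called higher there as well. Mvb12b was called lower in GFP- cells (-0.83 ± 0.23), and Csn2, Rasl12, Plekho2 and 6430548M08Rik were not called. Pm20d1 differed between the basal models by 1.57 ± 0.30, adjusted p = 0.00225, and its subtracted difference was not called within TEBs (1.92 ± 0.65, adjusted p = 0.144). The twelfth gene, 6430548M08Rik, differed by 3.55 ± 0.33, adjusted p = 1.15e-06. Apart from Spp1 and Csn2, these 12 genes kept both calls in every fit that left out 1 library.

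The lower genes beyond the model included matrix, guidance and growth-factor regulators. Gpc6, a glypican that binds growth factors at the cell surface, had 1.41 and 1.97 CPM in GFP+ TEBs and 11.2 and 12.4 CPM in GFP+ ducts, against 34 and 37.1 CPM in YFP- TEBs and 342 and 372 CPM in YFP- ducts. The GFP+ libraries were more than an order of magnitude below the YFP- libraries of the same tissue (-4.66 ± 0.54, adjusted p = 4.13e-05; after subtraction -4.42 ± 0.68, adjusted p = 0.00129). Sostdc1, a secreted inhibitor of BMP and WNT signals, had 0.27 and 0.57 CPM in GFP+ TEBs and 0.2 and 0.887 CPM in GFP+ ducts, against 12.6 and 21 CPM in YFP- TEBs and 47.3 and 31.6 CPM in YFP- ducts. The log2 difference of Sostdc1 was -5.80 ± 1.13 (adjusted p = 0.00234) between gates and -5.60 ± 1.39 (adjusted p = 0.0244) after subtraction. Ncs1, a neuronal calcium sensor, had 2.53 and 2.95 CPM in GFP+ TEBs and 0.6 and 0.697 CPM in GFP+ ducts, against 24.6 and 28.1 CPM in YFP- TEBs and 27.7 and 29.6 CPM in YFP- ducts. Ncs1 differed by -4.37 ± 0.53 (adjusted p = 3.5e-05) between gates and -3.76 ± 0.67 (adjusted p = 0.00276) after subtraction. Each of these 3 was lower in all GFP+ libraries. Pcolce2, which helps to trim procollagen, had 0.0222 to 0.348 CPM in GFP+ cells, against 5.98 to 14 CPM in YFP- cells (-5.84 ± 0.89, adjusted p = 0.00019). Adamts2, a procollagen protease, differed by -4.36 ± 0.31, adjusted p = 5.99e-08, Epdr1, a lysosomal protein, by -4.75 ± 0.51, adjusted p = 1.1e-05, and Srrm4, a neuronal splicing factor, by -4.32 ± 0.49, adjusted p = 9.23e-06. Minar1, an inhibitor of angiogenesis, had 0.521 and 0.305 CPM in GFP+ TEBs and 0.0445 and 0 CPM in GFP+ ducts, against 20.2 and 16 CPM in YFP- TEBs and 6.16 and 5.82 CPM in YFP- ducts (-6.58 ± 0.85, adjusted p = 4.85e-05). Ephb2, a receptor for ephrin-B guidance ligands, had 2.74 and 1.42 CPM in GFP+ TEBs and 0.244 and 0 CPM in GFP+ ducts, against 24.9 and 14.8 CPM in YFP- TEBs and 9.48 and 5.33 CPM in YFP- ducts (-4.48 ± 0.79, adjusted p = 0.000979). Myo7a (a myosin of sensory hair cells), 2610507I01Rik and D730005E14Rik differed between the gates by -5.50 ± 0.44, -5.49 ± 0.30 and -5.31 ± 0.45 and between the basal models by -3.65 ± 0.39, -4.18 ± 0.28 and -3.07 ± 0.40, so most of their difference was shared with the models. These 3 were also called lower in GFP- than in YFP+ cells (-5.81 ± 0.47, -5.87 ± 0.31 and -6.37 ± 0.47), as was Minar1 (-5.38 ± 1.29). The other lower genes of this rule were not called in that pair. The subtracted call ended without YFP- TEB replicate 2 for Minar1 (adjusted p = 0.0724), Sostdc1 (0.0545), Ephb2 (0.0541), Myo7a (0.0946), 2610507I01Rik (0.114) and D730005E14Rik (0.0581), and without other single libraries too. Their calls between the gates held in all 8 fits that left out 1 library.

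Counts in the growth-factor, matrix and junction lists stand beside 12.7% higher and 9.67% lower of all genes, and nothing is read from these lists as a whole. Nrg2, a neuregulin ligand of ERBB receptors, had 2.84 and 2.81 CPM in GFP+ TEBs and 3.13 and 1.77 CPM in GFP+ ducts, against 9.45 and 7.3 CPM in YFP- TEBs and 33.6 and 24.6 CPM in YFP- ducts (-2.56 ± 0.44, adjusted p = 0.000761), the 1 call among 13 genes of the EGF family. Of 18 basement membrane and integrin genes 4 were higher and 2 lower. Col4a1, a chain of collagen IV, had 58.5 and 57.6 CPM in GFP+ TEBs and 26.9 and 26.4 CPM in GFP+ ducts, against 104 and 94.4 CPM in YFP- TEBs and 129.6 and 106 CPM in YFP- ducts. All GFP+ libraries were below all YFP- libraries (-1.46 ± 0.23, adjusted p = 0.000402; after subtraction -1.39 ± 0.33, adjusted p = 0.0161), and its partner Col4a2 differed by -1.01 ± 0.27, adjusted p = 0.0141, without a call when GFP+ duct replicate 2 or GFP+ TEB replicate 1 was left out (adjusted p up to 0.0686). Lama1, a laminin alpha chain, differed by 2.73 ± 0.49, adjusted p = 0.00131. Of 15 junction genes 2 were higher and 3 lower, and 1 and 2 were without YFP- TEB replicate 2. Pkp1, a desmosomal plakophilin, had 225 and 295 CPM in GFP+ TEBs and 50.7 and 76.6 CPM in GFP+ ducts, against 412 and 439 CPM in YFP- TEBs and 509 and 506 CPM in YFP- ducts (-1.85 ± 0.35, adjusted p = 0.00185), and Gja1, connexin 43, differed by -1.68 ± 0.34, adjusted p = 0.00271.

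The model-like genes were those called alike between the gates and between the basal models and not after subtraction, and the 6 highest and 6 lowest were taken from 184 and 200 that met the rule. Gm6436 had 0.27 and 0.163 CPM in GFP+ TEBs and 0.4 and 0.475 CPM in GFP+ ducts, against 13.2 and 8.57 CPM in YFP- TEBs and 14.2 and 12.2 CPM in YFP- ducts. Its difference was -5.27 ± 0.30 between the gates and -5.16 ± 0.30 between the basal models. H2-Bl, a class I heavy chain gene, had 11.2 to 15.8 CPM in GFP+ cells, against 0.162 to 0.422 CPM in YFP- cells, with 5.31 ± 0.29 between the gates and 5.87 ± 0.35 between the models. Gm10499, in the same class I region of chromosome 17, differed by 5.72 ± 0.53 and 4.59 ± 0.57. For all 3 the basal cells of the mice differed in the direction of the gates, and the subtracted differences were -0.11 ± 0.41, -0.55 ± 0.47 and 1.13 ± 0.88. Sycp1, a protein of the meiotic synaptonemal complex, had 5.67 and 5.84 CPM in GFP+ TEBs and 4.93 and 8.87 CPM in GFP+ ducts, against 0 and 0 CPM in YFP- TEBs and 0.216 and 0 CPM in YFP- ducts, at least 148-fold higher in GFP+ than in YFP- TEBs, which held no count. Basal cells had 10.9 ± 5.67 CPM in basal Elf5 cells and 0.0121 ± 0.0243 CPM in basal PRcr cells of it. The subtracted difference of Sycp1 over both tissues had no usable test (-1.79, SE 3374). Its missed call therefore does not show that it follows the models. Within ducts and within TEBs the subtracted difference was -5.19 ± 2.35 and 1.61 ± 1.91, neither called. Nr1h5, the nuclear receptor FXR-beta, lies next to Sycp1 on chromosome 3 and had 29.8 and 18.2 CPM in GFP+ TEBs and 3.78 and 0.38 CPM in GFP+ ducts, against 0.0426 and 0 CPM in YFP- TEBs and 0.135 and 0 CPM in YFP- ducts; basal cells had 26.4 ± 25.4 CPM in basal Elf5 cells and 0.0812 ± 0.147 CPM in basal PRcr cells. Mmp16, a membrane-bound matrix metalloproteinase, had 4.3 and 5.57 CPM in GFP+ TEBs and 48.7 and 47.8 CPM in GFP+ ducts, against 0.234 and 0 CPM in YFP- TEBs and 0 and 0.42 CPM in YFP- ducts (6.58 ± 0.82 between the gates, 3.52 ± 0.70 between the models), and Csn1s1 completed the 6. All 6 were also called higher in GFP- than in YFP+ cells, Sycp1 by 10.7 ± 1.0 (adjusted p = 9.35e-06). Gm6436 was called lower in that pair (-5.99 ± 0.32).

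Of the model-like lower genes, Slc5a7, the choline transporter of cholinergic neurons, had 0 and 0.183 CPM in GFP+ TEBs and 0 and 0 CPM in GFP+ ducts, against 115 and 134 CPM in YFP- TEBs and 576 and 532 CPM in YFP- ducts. It was at least 16200-fold higher in YFP- than in GFP+ ducts, which held no count, while basal cells had 0.106 ± 0.136 CPM in basal Elf5 cells and 1.16 ± 0.706 CPM in basal PRcr cells. The luminal level in YFP- cells exceeded the basal one by far. The subtracted difference was not called over both tissues (adjusted p = 0.179), in a fit where GFP+ ducts held no counts. It was called within TEBs (-8.71 ± 1.56, adjusted p = 0.0105). The model-like rule thus took in a gene whose TEB difference went beyond that of the basal cells. Slc5a7 was also called lower in GFP- than in YFP+ cells (-8.41 ± 0.72, adjusted p = 4.12e-06). The difference was therefore not particular to the GFP+ and YFP- gates. Col6a6, another collagen VI chain, had 0 to 0.135 CPM in GFP+ cells, against 3.48 to 9.8 CPM in YFP- cells, and was at least 240-fold higher in YFP- than in GFP+ ducts; basal cells had 1.6 ± 1.18 CPM in basal Elf5 cells and 19.7 ± 12.6 CPM in basal PRcr cells. Rab6b, a Golgi GTPase of neurons, differed by -5.17 ± 0.47 between the gates and -3.21 ± 0.42 between the models and just missed the call after subtraction (adjusted p = 0.0501). Pclo, a presynaptic scaffold, differed by -5.13 ± 0.90 and -3.46 ± 0.78, and 4930481A15Rik by -7.09 ± 0.72 and -6.08 ± 0.70. Rab6b, Pclo and 4930481A15Rik were also called lower in GFP- than in YFP+ cells (-6.39 ± 0.52, -5.58 ± 1.0 and -8.1 ± 0.9). Col6a6 was not called in that pair (-1.27 ± 1.24). Positions of the model-like genes were counted by chromosome. Chromosome 17 had the highest share, 65 of 859 genes tested (7.57%), and the X chromosome the lowest, 13 of 610 (2.13%). Over all 18109 genes tested, 403 higher and 383 lower genes were model-like. Within 10 Mb of Elf5 on chromosome 2, 9 of 79 genes tested were called between the basal models (11.4%), and within 10 Mb of Pgr on chromosome 9, 5 of 58 (8.62%), where 9.98% of all genes were.

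Markers of other cells were counted beside these results, where 12.7% of all genes were higher in GFP+ cells and 9.67% lower. Of 14 basal identity genes 3 were lower in GFP+ cells and none higher. Their sums were 123.9 to 231.2 CPM in GFP+ and 278.1 to 969 CPM in YFP- libraries. Krt5 had 0.579 and 0.814 CPM in GFP+ TEBs and 3.16 and 2.44 CPM in GFP+ ducts, against 60.3 and 453 CPM in YFP- TEBs and 1.62 and 27 CPM in YFP- ducts (-5.43 ± 1.34, adjusted p = 0.0103; without YFP- TEB replicate 2 adjusted p = 0.0398). The YFP- libraries were widely spread, with replicate 2 highest in both tissues. Krt14 had 5.4 and 7.57 CPM in GFP+ TEBs and 5.18 and 3.04 CPM in GFP+ ducts, against 31 and 267 CPM in YFP- TEBs and 26.7 and 24.9 CPM in YFP- ducts and was called only with YFP- TEB replicate 2 (adjusted p = 0.0308; 0.146 without it). Of 11 keratinocyte genes tested 2 were lower, Krt1 and Lgals7; the list of 12 summed to 71.7 and 97.1 CPM in GFP+ TEBs and 43.6 and 51 CPM in GFP+ ducts, against 162.1 and 524.4 CPM in YFP- TEBs and 135.4 and 134.8 CPM in YFP- ducts, with Flg at 0 throughout. Of these, 1 of the 3 basal and 1 of the 2 keratinocyte calls held without YFP- TEB replicate 2. Of 13 contractile genes 2 were higher (Lmod1 2.03 ± 0.30 and Synm 1.17 ± 0.29) and Tagln was lower (-0.34 ± 0.11), with sums of 259.1 to 538.8 CPM in GFP+ and 212.4 to 487.5 CPM in YFP- libraries. Acta2, smooth-muscle actin, had 3.18 and 3.86 CPM in GFP+ TEBs and 14.6 and 9.79 CPM in GFP+ ducts, against 11.3 and 6.17 CPM in YFP- TEBs and 7.29 and 5.72 CPM in YFP- ducts, higher in GFP+ ducts and lower in GFP+ TEBs (-2.22 ± 0.34, adjusted p = 0.00593, TEB minus duct), and Myh11, smooth-muscle myosin, followed it (-3.43 ± 0.52, adjusted p = 0.00741).

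The counts that follow stand beside the same shares of all genes, 12.7% higher and 9.67% lower. Immune markers summed to 7.5 to 19.6 CPM in GFP+ and 6.9 to 10.8 CPM in YFP- libraries, and 0 of 14 were called. Endothelial and pericyte markers summed to 19 to 25 and 8.4 to 31.3 CPM. Of these 14, 4 were higher in GFP+ cells (Cdh5, Kdr, Esam and Pdgfrb), each under 3.2 CPM in all 8 libraries. Between the basal models 3 of the 14 were higher in Elf5 cells, where 4.54% of all genes were. Cdh5 and Kdr lost the call without YFP- TEB replicate 2. Fibroblast markers summed to 97.5 to 148.2 and 62.7 to 230.2 CPM, with Dcn higher (2.01 ± 0.65, adjusted p = 0.0419) and Fbln2 lower (-0.91 ± 0.31, adjusted p = 0.0478; 0.0737 without YFP- TEB replicate 2). Adipocyte markers stayed at 2.7 to 4.6 and 0.4 to 4.6 CPM with Lep at 0, and 0 of 3 were called, as were 0 of 4 erythroid genes. The part of such cells in the results was not tested. Of the cell cycle genes, 0 of 23 in S phase and 0 of 24 in G2 and M phase were called, with medians of -0.27 and -0.23. Oxidative phosphorylation genes were higher in 7 of 20, none was lower and the median was 0.18; without YFP- TEB replicate 2, 3 stayed called. Heat shock genes were higher in 2 of 13 and lower in 1.

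**Figure D5:**
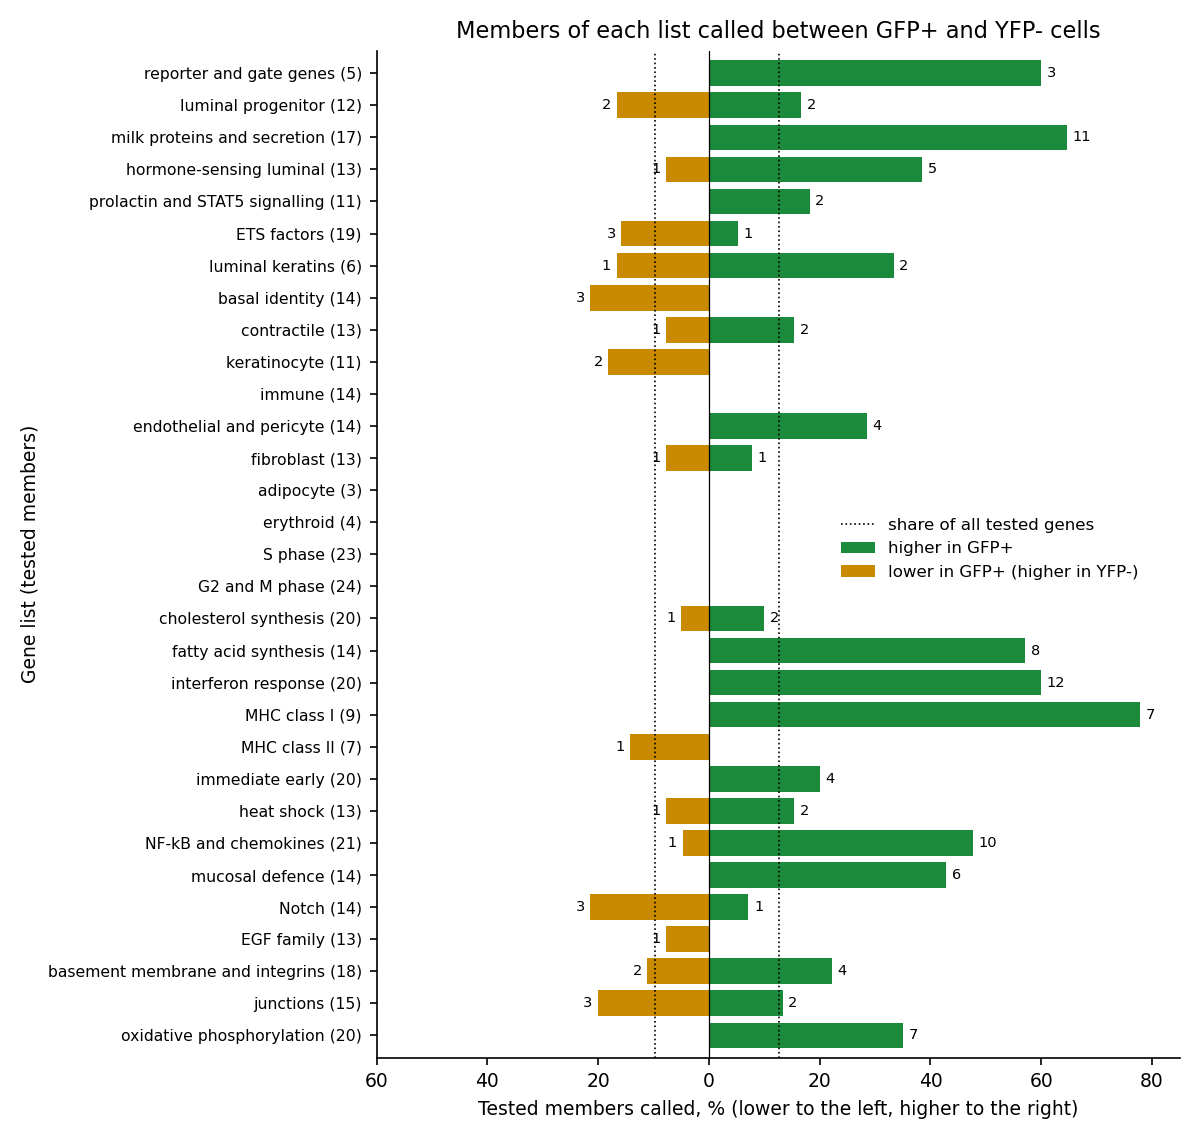
Share of the tested members of each of 31 gene lists called between GFP+ and YFP- cells, higher in GFP+ to the right and lower to the left, with the number of called members at the bar end and tested members in brackets; dotted lines mark the share of all genes tested (12.7% higher, 9.67% lower). Milk, fatty acid, interferon and MHC class I lists, among others, have a bar to the right only. The NF-kB list has 10 members to the right and 1 to the left, and neither cell cycle list has a bar.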

How the data were processed

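RNA-seq of sorted mammary cells was analysed in 8 luminal libraries (4 GFP+, 4 YFP-) within a fit of all 24. Per the labels' protocols, the RNA came from a miRNeasy extraction with a DNase step, and TruSeq RNA v2 libraries were made from it. That kit does not mark strand, so overlapping genes cannot be told apart. The authors deposited whole-number counts per gene. Per the submitters' processing notes featureCounts and mm10 were used, and the aligner is not given in the sources used here. The single files and the series table differed in 0 values. Of 27179 genes, 25275 took a symbol from RefSeq and 18 from GENCODE, and 1886 (1.22% of counts) had none. Total counts of the 8 libraries ran from 31.26 to 52.5 in units of 1e6. A count of 3 equals 0.0571 to 0.096 CPM. Such floors cover counting error only, since reads without molecular identifiers are not independent molecules.

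Counts were fitted in edgeR 4.0.16 (R 4.3.3, limma 3.58.1). The filter filterByExpr (minimum count 10, total 15) left 18109 genes, and TMM factors were 0.857 to 1.104. The robust quasi-likelihood fit gave each of 12 groups its own mean, with 12 residual degrees of freedom. Contrasts averaged TEB and duct. Every adjusted p is from edgeR's quasi-likelihood F-test with Benjamini-Hochberg adjustment over all genes tested, and calls were made at 0.05. The SE is the size of the log2 difference divided by the square root of F. Members, lists and the naming rule were chosen with earlier results of these data known, so no list was tested as a set.

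Named genes were the 12 highest and 12 lowest by gate difference among genes called between gates and after subtraction. They also needed 1 sign in both tissues, gates that did not overlap and a mean of at least 5 CPM in the higher gate. The 6 highest and 6 lowest model-like genes, the 5 highest and 5 lowest by tissue difference, the reporter and gate genes and up to 4 members of each list were added. Others were chosen after their values were seen. On simulated data over 17717 genes, the gate comparison recovered 91% of genes changed by 1 on the log2 scale and 98% of those changed by 2. The subtracted comparison recovered 67% and 95%. Changes were simulated only in genes with a mean over 5 CPM and over 1 CPM in luminal and in basal cells of each tissue. Libraries were drawn independently. These shares therefore do not cover genes with a group at few or no counts. Alternatives were other scalings, filters, tools (DESeq2 1.42.0, limma-voom), designs, replicate blocks and the removal of each library. Single genes of cholesterol synthesis are not reported here.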

Additional observations from a re-analysis of the deposited data

Results flagged for a closer look

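The difference between GFP+ and YFP- cells itself differed between TEBs and ducts for 205 of 18109 genes, by the test of the TEB minus duct difference in edgeR's quasi-likelihood fit. Values here are log2 differences, TEB minus duct, so a positive value means that GFP+ stood higher relative to YFP- in TEBs than in ducts. Interferon-response genes gave 4 of them: Isg15 at 1.94, Oasl2 at 1.93, Mx2 at 2.02 and Xaf1 at 1.86. The other positive values were those of Col27a1 (3.98), Rtn1 (3.61), Snorc (3.54), Pgf (placental growth factor, 3.49) and Trpv6 (an epithelial calcium channel, 3.44). Pgf had 10.4 and 16.3 CPM in GFP+ TEBs and 2.78 and 2.88 CPM in GFP+ ducts, against 17.9 and 9.02 CPM in YFP- TEBs and 35 and 29.1 CPM in YFP- ducts. Trpv6 had 9.66 and 8.26 CPM in GFP+ TEBs and 0.756 and 1.71 CPM in GFP+ ducts, against 16 and 10.6 CPM in YFP- TEBs and 22 and 16.7 CPM in YFP- ducts. For both genes the GFP+ ducts were the lowest of the 4 groups.

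Negative values came from the contractile genes Acta2 (-2.22) and Myh11 (-3.43), from Pdk4 (-5.81), Limch1 (-4.23), Plekho2 (-1.99), Msx2 (-1.74) and Plin2 (-1.19), from Btg2 (an antiproliferative gene, -1.50), Socs3 (a feedback inhibitor of cytokine signals, -1.23) and Lamb1 (a laminin chain, -0.78). Socs3 had 37.5 and 35.2 CPM in GFP+ TEBs and 104 and 127 CPM in GFP+ ducts, against 56.4 and 56.1 CPM in YFP- TEBs and 80.7 and 71.5 CPM in YFP- ducts. In ducts both GFP+ libraries were above both YFP- libraries, and in TEBs both were below (adjusted p of the TEB minus duct difference = 0.0488). Saa1 (-10.84) and Pianp (-6.97) were at 0 counts in YFP- ducts, and such fitted values move with the prior count. Ifi202b, an interferon-inducible gene with near-identical copies, had 3.47 and 5.25 CPM in GFP+ TEBs and 4.82 and 5.35 CPM in GFP+ ducts, against 0.341 and 11.8 CPM in YFP- TEBs and 0.081 and 0 CPM in YFP- ducts and a value of -7.24. The value rested on YFP- TEB replicate 2, and without that library it was -3.11 (adjusted p = 0.235). Of the genes named here, 8 kept the call in all 8 fits that left out 1 library. Leaving out YFP- TEB replicate 2 ended the call of Plin2 (adjusted p = 0.0593), Msx2 (0.0845), Socs3 (0.125), Trpv6 (0.105), Pgf (0.095), Snorc (0.0593), Btg2 (0.185), Lamb1 (0.11), Saa1 (0.0708), Pianp (0.29), Isg15 (0.057), Mx2 (0.0528) and Xaf1 (0.0845) as well.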

How the results depend on the processing

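Gene by gene, the alternatives were computed for named genes and list members, and none of the called differences among them changed sign. Leaving out 1 library ended the call in some fit for 51 of 162 called gate differences, 25 of 70 after subtraction and 15 of 23 between tissues. With DESeq2's Wald test 975 genes were lower after subtraction (543 in edgeR), 702 were lower both between gates and after subtraction (403), 619 differed between tissues (205), and the subtracted difference called 1463 genes within ducts (889) and 1007 within TEBs (463). A fit of 16 libraries in 8 groups gave 868, 672, 452, 1344 and 890 for the same results. Without 2 libraries with keratinocyte transcripts (YFP- TEB replicate 2 and GFP- duct replicate 2) the subtracted difference called 1434 genes within ducts. Leaving out 1 library at a time gave 1612 to 2114 higher and 1158 to 1459 lower genes between gates, 1297 to 2483 within ducts, 650 to 1938 within TEBs and 50 to 122 between tissues. Between the basal models it gave 510 to 804 higher and 598 to 1061 lower genes. After subtraction it gave 674 to 1044 higher and 330 to 470 lower genes, 460 to 903 within ducts and 212 to 476 within TEBs. Lower in both were 244 to 348 genes, and model-like were 277 to 364 higher and 255 to 369 lower genes. Where replicates of a gate were left out, the lone library is assumed to vary like the other groups. The sign of the uncalled subtracted difference turned in some of these fits for 5 model-like genes: Gm6436 (-0.37 to 0.43), 4930481A15Rik (-3.37 to 0.20), Gm10499 (-0.97 to 1.71), Sycp1 (-3.28 to 0.85) and Nr1h5 (-3.80 to 1.32). The median over all genes stayed between -0.004 and 0.063. Deviations between replicates of equal number had correlations across gates of -0.03 in ducts and 0 in TEBs. Between GFP+ and basal Elf5 cells they were 0.14 in ducts and 0.03 in TEBs. Between YFP- and basal PRcr cells they were 0.03 and 0.06. With 2 libraries per group these values do not settle whether samples were paired, and the main fit treats libraries as independent. A replicate block by number gave 2384 higher and 1843 lower genes between gates, 1030 and 590 after subtraction and 230 between tissues; a replicate block with 1 term per model and tissue gave 368 between tissues. A fit of the 8 luminal libraries with tissue as an additive term called 1704 higher and 1762 lower genes. The cause of these moves was not tested. Depth limited genes with groups under 3 counts, and 61 of the 4055 gate calls had no usable subtracted test by the rule given above.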
